A study of Mus musculus with 6 samples.

Results

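Transcripts of 34 cell cycle and DNA replication genes were followed in whole adrenal glands of clock-deficient mice at 2 times of constant darkness. The genes were taken from a fixed list of names, which was chosen with earlier results of these data known. Every probe set that the platform annotation assigned to exactly 1 of the genes was read. These were 80 of the 44935 probe sets analysed, and they covered 33 of the 34 genes, among 18163 genes named on the array; Ccnb1 was not analysed here. All mice were 3-month-old males of the strain Per2Brdm1/Cry1-/- (C57BL6x129Sv), which carries the Brdm1 mutation of Per2 and lacks Cry1. They had been entrained to light and dark for weeks and then kept in the dark, and whole adrenals were collected at 46 h and at 54 h from lights off, with 3 arrays per time (called replicates 1, B and C, where 1 is the array whose title has no letter). No other genotype was analysed here, so every value belongs to a clock-deficient gland, and anything else that differed between the collections cannot be told apart from time. The labels do not say whether the arrays came from separate mice, so p-values here speak only of how much these 6 arrays vary, and that variation may be technical.

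Cells that prepare to divide pass from G1 into S phase when D-type and E-type cyclins switch on their kinases, E2F factors are released from the RB family, and the genome is copied by licensed helicases, a sliding clamp and a supply of deoxynucleotides. In G2 and mitosis, CDK1 with cyclins A and B, the Aurora and Polo kinases, the spindle checkpoint and the anaphase promoting complex then separate the copies. In the adult adrenal cortex few cells divide, and new steroid-producing cells come largely from progenitors in and under the capsule. The 34 genes were accordingly read as 17 genes of G1/S and replication and 17 genes of G2/M. A whole gland gives 1 value for all its cells, so fewer cycling cells and less RNA per cycling cell cannot be told apart.

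Promoters are shown for 2 genes of each class, to let the motif words counted in them be seen. They were taken by the number of kinds of motif, and among equals by the brighter probe set: Mcm7 held 4 kinds, and Mcm5 held 3, as did Mcm3 and Mcm6. In G2/M, Bub1b, Cdk1 and Top2a held 3 kinds each. The windows run from 250 bases before to 50 after the start of transcription in RefSeq (build GRCm38.p6), which held promoters of 13 of the 17 G1/S and replication genes and 15 of the 17 G2/M genes. The windows shown are Mcm7 (chr5:138171834-138172133, minus strand), Mcm5 (chr8:75109259-75109558, plus strand), Bub1b (chr2:118597961-118598260, plus strand) and Cdk1 (chr10:69352863-69353162, minus strand). Capitals mark every match, on either strand, to CCAAT (the box bound by NF-Y), to TTTGAA or else TTCGAA (both forms of the cell cycle homology region), and to the E2F-type words, which are TTTGGCGC and TTTCGCGC and also TTTCCCGC.
Mcm7: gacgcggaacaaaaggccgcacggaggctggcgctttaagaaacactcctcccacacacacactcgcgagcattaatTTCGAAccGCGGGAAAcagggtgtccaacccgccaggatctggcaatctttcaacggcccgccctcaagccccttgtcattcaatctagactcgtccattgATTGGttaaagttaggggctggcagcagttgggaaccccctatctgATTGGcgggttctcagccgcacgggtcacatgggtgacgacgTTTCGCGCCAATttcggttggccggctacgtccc
Mcm5: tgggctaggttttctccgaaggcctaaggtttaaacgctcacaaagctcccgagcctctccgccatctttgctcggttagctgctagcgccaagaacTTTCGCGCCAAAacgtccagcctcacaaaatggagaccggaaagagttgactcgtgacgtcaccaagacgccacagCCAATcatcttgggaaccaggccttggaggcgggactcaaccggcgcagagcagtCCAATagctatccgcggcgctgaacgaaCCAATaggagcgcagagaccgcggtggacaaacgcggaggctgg
Bub1b: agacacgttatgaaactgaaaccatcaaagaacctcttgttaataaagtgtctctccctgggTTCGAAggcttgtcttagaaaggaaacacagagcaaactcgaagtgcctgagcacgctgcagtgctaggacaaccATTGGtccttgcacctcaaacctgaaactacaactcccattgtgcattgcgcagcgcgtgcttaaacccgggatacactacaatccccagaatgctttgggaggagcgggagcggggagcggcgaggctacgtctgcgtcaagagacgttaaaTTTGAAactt
Cdk1: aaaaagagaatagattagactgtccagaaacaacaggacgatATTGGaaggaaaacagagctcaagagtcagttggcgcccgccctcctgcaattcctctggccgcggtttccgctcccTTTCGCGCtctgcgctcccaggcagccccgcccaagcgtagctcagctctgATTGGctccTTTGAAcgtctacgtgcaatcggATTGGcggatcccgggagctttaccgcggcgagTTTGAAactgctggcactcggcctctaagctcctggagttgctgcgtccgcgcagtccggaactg

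In Mcm7 and Mcm5 the capitals include E2F-type words, which in Mcm5 overlap each other and in Mcm7 overlap a CCAAT box. The Cdk1 window has 2 copies of TTTGAA, 3 CCAAT boxes and 1 E2F-type word, and the Bub1b window has 1 CCAAT box and 1 copy of either homology word. Over the class, 13 of 15 G2/M promoters held a cell cycle homology word of either form (86.7%), against 2 of 15 promoters of the G1/S and replication genes (13.3%) and 19.2% of all 32851 promoters in the RefSeq table. E2F-type words stood in 5 of the 15 G1/S and replication promoters (33.3%), in 1 of the 15 G2/M promoters (6.67%) and in 1.84% of all promoters. CCAAT was in 14 of 15, 10 of 15 and 37.4%. These matches describe letters only, both classes held words of every group, and the difference between the classes was not tested. The median GC content was 57.7% and 58.0% in the 2 classes and 52.7% over all promoters.

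The deposited values are linear intensity units, and changes are differences of log2(intensity + 16) between 54 h and 46 h, positive where 54 h was higher. Each gene was read from its brightest probe set, and since probe sets differ in how strongly they bind, levels are compared between arrays and not between genes. No member differed past the limma test between 46 h and 54 h: 0 of the 28 members above the filter on low values passed at an adjusted p of 0.05, against 0.109% of the 13780 genes read the same way and 0.115% of the 26961 probe sets tested. At an unadjusted p under 0.05, 2 of the 28 were lower at 54 h and 4 were higher (7.14% and 14.3%), where 6.20% and 4.11% of all genes were. The filter asked for a mean over the 6 arrays above the 40th percentile, near 139 units. It left out Cdc6, Ccne2, Aurka, Mki67 and Ube2c. Just inside stood Birc5 and Aurkb with means of 143 and 152 units, and just outside Ube2c and Mki67 with 132 and 130 units.

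The median changes of the classes had opposite signs, and that of G2/M was the larger in size; the difference between them was not tested, and with genes read only from probe sets not marked as able to match other transcripts both medians were negative (-0.02 for G1/S and replication, -0.23 for G2/M). Of 16 G2/M genes 12 were lower at 54 h and 4 higher, with a median log2 change of -0.12. Of 17 G1/S and replication genes 8 were lower and 9 higher, with a median of 0.04. Over all 18163 genes 55.3% were lower and the median was -0.02. The 95% confidence intervals of all 33 members lay within a 2-fold change in either direction and those of 24 within 1.5-fold; the outermost bounds were -0.96 for Mki67 and 0.54 for Kif11.

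**Figure D1:**
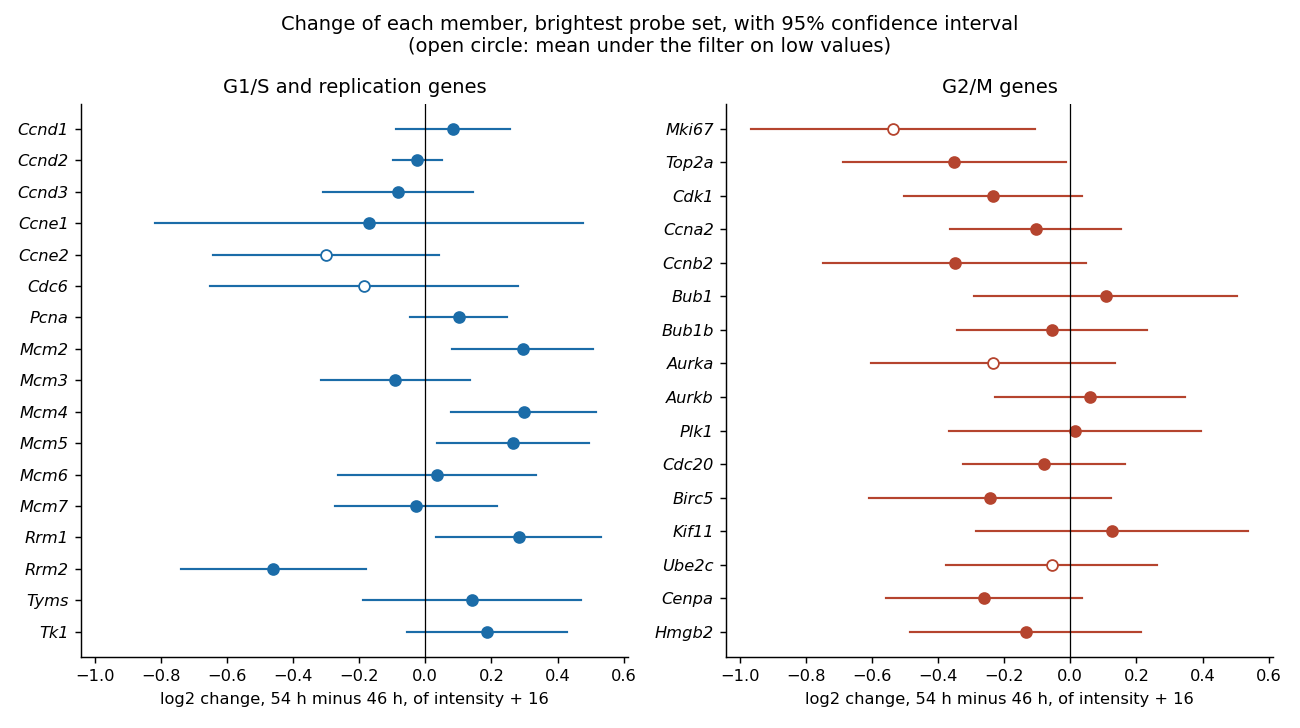
Log2 change of each member between 46 h and 54 h (x axis; points, brightest probe set) with its 95% confidence interval (bars), for the G1/S and replication genes on the left and the G2/M genes on the right; open circles are members under the filter on low values. Of the G2/M genes 12 of 16 points lie left of 0, and of the G1/S and replication genes 8 of 17.

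On each array, the deviation of every gene from its own 46 h mean gives the class a position. The G2/M median stood at 0.04, -0.05 and -0.01 at 46 h (replicates 1, B and C) and at -0.12, -0.17 and -0.14 at 54 h. All 54 h arrays lay below all 46 h arrays. For G1/S and replication the same medians were -0.03, -0.04 and 0.06 at 46 h and 0.04, 0.12 and 0.02 at 54 h, and the times overlapped. The median of all genes was -0.0041, -0.03 and 0.04 at 46 h and -0.02, -0.01 and -0.03 at 54 h. That of the 123 other cell cycle genes was 0.0028, -0.025 and 0.022 at 46 h and -0.068, -0.031 and -0.066 at 54 h. There too every 54 h array lay below every 46 h array, so this order was not particular to the G2/M members. No p is given for these medians because the members were chosen with results of these arrays known.

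**Figure D2:**
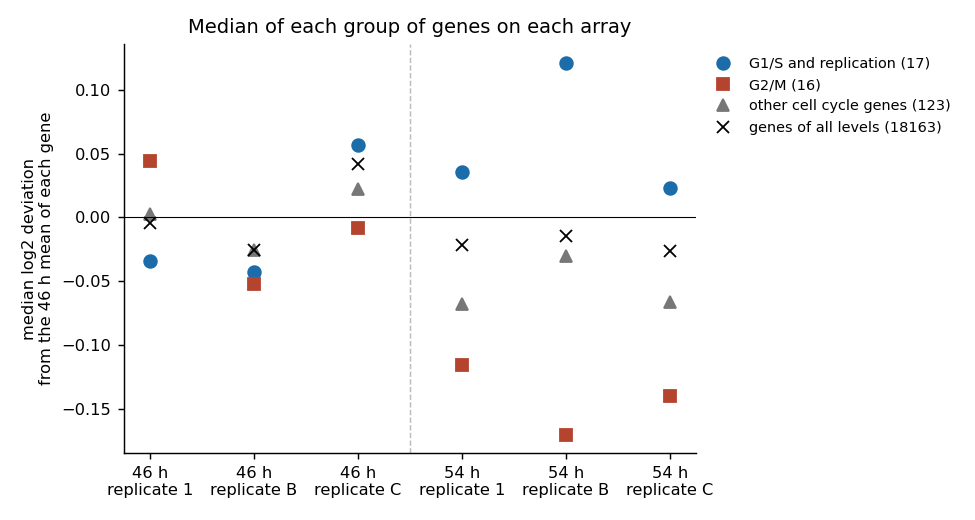
Median log2 deviation from the 46 h mean of each gene (y axis) on each of the 6 arrays (x axis), for 17 G1/S and replication genes, 16 G2/M genes, 123 other cell cycle genes and all 18163 genes. The G2/M squares lie at -0.12 to -0.17 on the 54 h arrays and at -0.05 to 0.04 on the 46 h arrays.

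Among the G1 cyclins, no D-type gene passed the test. D-type cyclins bind CDK4 and CDK6 and link growth signals to RB. Ccnd2 read 9829, 9723 and 9818 units at 46 h (replicates 1, B and C, in that order throughout) and 9452, 9753 and 9687 at 54 h, a log2 change of -0.02 ± 0.03 SE. The 95% interval, -0.10 to 0.05, was the narrowest among the members. Ccnd1 went from 3184 ± 249 to 3372 ± 223 units (SD, n = 3 each) and Ccnd3 from 6874 ± 473 to 6537 ± 1020 (SD, n = 3 each), log2 changes of 0.08 and -0.08. The ranges of both overlapped between the times.

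E-type cyclins activate CDK2 at the entry to S phase. Ccne1 read 1960, 1773 and 786 units at 46 h and 1193, 1115 and 1440 at 54 h, so 46h replicate C was the lowest of the 6 arrays and both other 46 h arrays the highest. Its log2 change was -0.17 ± 0.29 SE. The second Ccne1 probe set read 288, 283 and 202 units at 46 h against 217, 231 and 222 at 54 h, with the same array lowest. Ccne2 was dim, at 93.1, 80.4 and 88.4 units at 46 h and 74.7, 59.2 and 70.3 at 54 h. These groups did not overlap and gave a difference of -0.30 ± 0.15 SE on the log2 scale (limma adjusted p = 0.603 in the fit without a filter).

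The helicase genes Mcm2 to Mcm7 encode the ring of 6 proteins that unwinds DNA at origins, which Cdc6 helps to load. Mcm2 read 911, 1045 and 1108 units at 46 h and 1216, 1273 and 1266 at 54 h, a difference of 0.29 ± 0.10 SE on the log2 scale (limma adjusted p = 0.335). Mcm4 read 616, 594 and 632 units at 46 h and 823, 715 and 741 at 54 h, a difference of 0.30 ± 0.10 SE on the log2 scale (limma adjusted p = 0.338). Mcm5 read 472, 555 and 516 units at 46 h and 642, 619 and 599 at 54 h, a difference of 0.27 ± 0.10 SE on the log2 scale (limma adjusted p = 0.430). In these 3 genes every 54 h array was above every 46 h array. The ring's other members were nearer 0, with -0.09 for Mcm3, 0.04 for Mcm6 and -0.03 for Mcm7, although the 54 h values of Mcm3 (479, 472 and 448 units) were all below those at 46 h (481, 482 and 530). Cdc6 was under the filter, at 50.4 ± 6.70 and 43.3 ± 14.3 units (SD, n = 3 each).

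The higher values of Mcm2, Mcm4 and Mcm5 were read by 1 kind of probe set. Affymetrix marks with the endings _s_at and _x_at those probe sets whose probes can also match other transcripts, and the brightest probe sets of these 3 genes carry such an ending. Their other probe sets above the filter, without the ending, had log2 changes of -0.01 for Mcm2 (535, 570 and 761 units at 46 h; 476, 760 and 627 at 54 h), -0.06 for Mcm4 (660, 629 and 706; 648, 641 and 621) and -0.02 for Mcm5 (454, 370 and 468; 414, 431 and 424). Here the times overlapped in all 3 genes. Over all probe sets above the filter, the 3447 with such an ending had a median change of 0.0046 and the 23514 others -0.02. Which transcripts the shared probes bound was not tested.

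In nucleotide supply and the clamp, both subunits of ribonucleotide reductase, the enzyme that makes deoxynucleotides, stood on opposite sides. Rrm2, the subunit whose supply limits the enzyme in S phase, read 330, 262 and 313 units at 46 h and 224, 216 and 202 at 54 h. The mean was 302 ± 35.2 against 214 ± 10.8 units (SD, n = 3 each), 1.38-fold lower, a log2 change of -0.46 ± 0.12 SE. It had the smallest p of the members and did not pass (limma adjusted p = 0.260). Both other Rrm2 probe sets were under the filter and also lower, by -0.45 and -0.17; the brightest has the ending _x_at. Rrm1, the large subunit, read 592, 541 and 696 units at 46 h and 742, 748 and 731 at 54 h, a difference of 0.28 ± 0.11 SE on the log2 scale (limma adjusted p = 0.439). Its groups did not overlap, but the second Rrm1 probe set above the filter had -0.12 ± 0.15 SE, with 594, 589 and 740 units at 46 h and 487, 690 and 597 at 54 h.

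Pcna, the clamp that holds polymerases on DNA, read 3449, 3501 and 3772 units at 46 h and 4029, 3886 and 3590 at 54 h, with an overlap in 54h replicate C and a log2 change of 0.10 ± 0.06 SE. Thymidine kinase, Tk1, read 262, 255 and 270 units and then 319, 288 and 295, without overlap, a difference of 0.19 ± 0.11 SE on the log2 scale (limma adjusted p = 0.601). Thymidylate synthase, Tyms, had 0.14 ± 0.15 SE from 1 probe set above the filter.

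Among the G2/M genes, the proliferation antigen and chromatin genes Mki67, Top2a and Hmgb2 had negative changes by their brightest probe sets, and none passed the test. Mki67, which encodes the Ki-67 antigen of cycling cells, read 169, 130 and 168 units at 46 h and 136, 95.7 and 79.6 at 54 h, 1.45-fold lower, a log2 change of -0.54 ± 0.19 SE. It was under the filter and did not pass in the fit without one (limma adjusted p = 0.459), and 54h replicate 1 lay above 46h replicate B. Top2a, the topoisomerase that untangles chromosomes, read 203, 153 and 204 units and then 161, 136 and 130, with the same 2 arrays out of order, and gave a difference of -0.35 ± 0.15 SE on the log2 scale (limma adjusted p = 0.478). Both other Top2a probe sets, under the filter at 25.2 to 81.0 units, had -0.04 and 0.43, and the mean over all 3 probe sets had 0.012. The chromatin protein Hmgb2 had -0.13 ± 0.16 SE from its brightest probe set, an _x_at set with 54h replicate 1 the highest of the 6 arrays. Its next probe set, without such an ending, read 239, 230 and 260 units at 46 h and 178, 171 and 163 at 54 h, without overlap, a difference of -0.47 ± 0.12 SE on the log2 scale (limma adjusted p = 0.210), and another set, under the filter, had 0.34 ± 0.21 SE.

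The mitotic kinase Cdk1 and its cyclins were all on the lower side. Cdk1 read 244, 221 and 243 units at 46 h and 216, 196 and 183 at 54 h, a difference of -0.23 ± 0.12 SE on the log2 scale (limma adjusted p = 0.556). It was the only G2/M member above the filter whose times did not overlap by its brightest probe set. Ccnb2, cyclin B2, read 249, 166 and 191 units and then 139, 188 and 136, a log2 change of -0.35 ± 0.18 SE; 54h replicate B lay within the 46 h range. Cyclin A2, Ccna2, had -0.11 ± 0.11 SE.

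**Figure D3:**
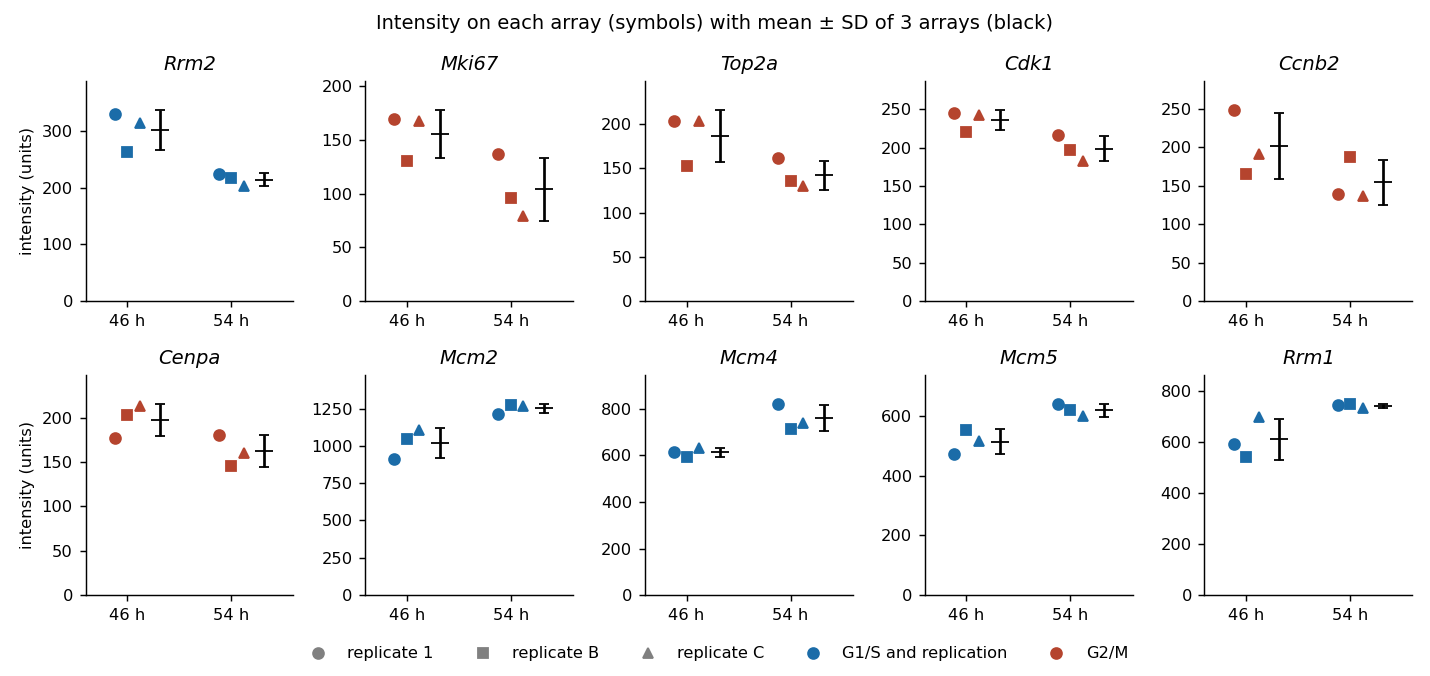
Intensity in units (y axis, from 0) on each array at 46 h and 54 h (symbols by replicate) with the mean ± SD of 3 arrays in black, for 10 members; blue marks G1/S and replication, red G2/M. Rrm2, Cdk1, Mcm2, Mcm4, Mcm5 and Rrm1 show no overlap between the times, whereas Mki67, Top2a, Ccnb2 and Cenpa do. The 10 are among the members of smallest unadjusted p, so their share without overlap does not describe the members. Over all genes above the filter 9.95% were lower and 6.33% higher without overlap. In Mcm2, Mcm4, Mcm5 and Rrm1 another probe set above the filter had a negative change, with overlap.

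Genes of the later mitotic steps were mixed. Cenpa, the histone variant of centromeres, read 177, 202 and 213 units at 46 h and 181, 146 and 161 at 54 h, a log2 change of -0.26 ± 0.13 SE. Birc5 (survivin, of the chromosomal passenger complex) had -0.24 ± 0.16 SE; at 54 h it read 166 units on replicate 1, above every 46 h array, and 120 and 106 on the other two. The spindle motor Kif11 had 0.13 ± 0.18 SE. The kinases Aurka, Aurkb and Plk1 had -0.23, 0.06 and 0.01, and Aurka was under the filter. The checkpoint kinases Bub1 and Bub1b had 0.11 and -0.06. Second probe sets, under the filter, had the opposite sign in Aurka (0.22), Aurkb (-0.34) and Bub1 (-0.48). Those of Bub1b had -0.26 and 0.0024, those of Cenpa -0.10 and 0.25, and those of Kif11 -0.12 and 0.05. Cdc20, which activates the anaphase promoting complex, had -0.08 ± 0.11 SE, and Ube2c, a ubiquitin-conjugating enzyme of the same complex, had -0.06 ± 0.14 SE. All these genes overlapped between the times.

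In all, 3 members above the filter had every 54 h array under every 46 h array (Mcm3, Rrm2 and Cdk1, 10.7% of 28) and 5 had the reverse (Mcm2, Mcm4, Mcm5, Rrm1 and Tk1, 17.9%). Over all genes the shares were 9.95% and 6.33%. Of the 5, only Tk1 has a single probe set; in the other 4 another probe set above the filter had a negative change.

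Probe sets of 1 gene often disagreed. Of 23 members with more than 1 probe set, 13 had more than 1 above the filter, and in 4 of these (Ccne1, Mcm6, Cdc20 and Hmgb2) the changes shared a sign, while in 9 they did not. In Ccnd2, 6 of the 7 probe sets had log2 changes between -0.07 and 0.08. The other read 117, 122 and 202 units at 46 h and 303, 226 and 278 at 54 h, without overlap, a difference of 0.83 ± 0.20 SE on the log2 scale (limma adjusted p = 0.204); it was the dimmest of the 7. A Cdc20 probe set under the filter read 432, 468 and 9.48 units at 46 h and 197, 8.58 and 197 at 54 h, a spread that no other Cdc20 probe set showed. With genes read from their brightest probe set without an _s_at or _x_at ending, a reading added once the data had been seen, the median change of the G1/S and replication genes turned to -0.02 (11 of 17 lower) and that of the G2/M genes was -0.23 (12 of 15 lower), against 56.2% lower and -0.02 over all genes read that way.

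**Figure D4:**
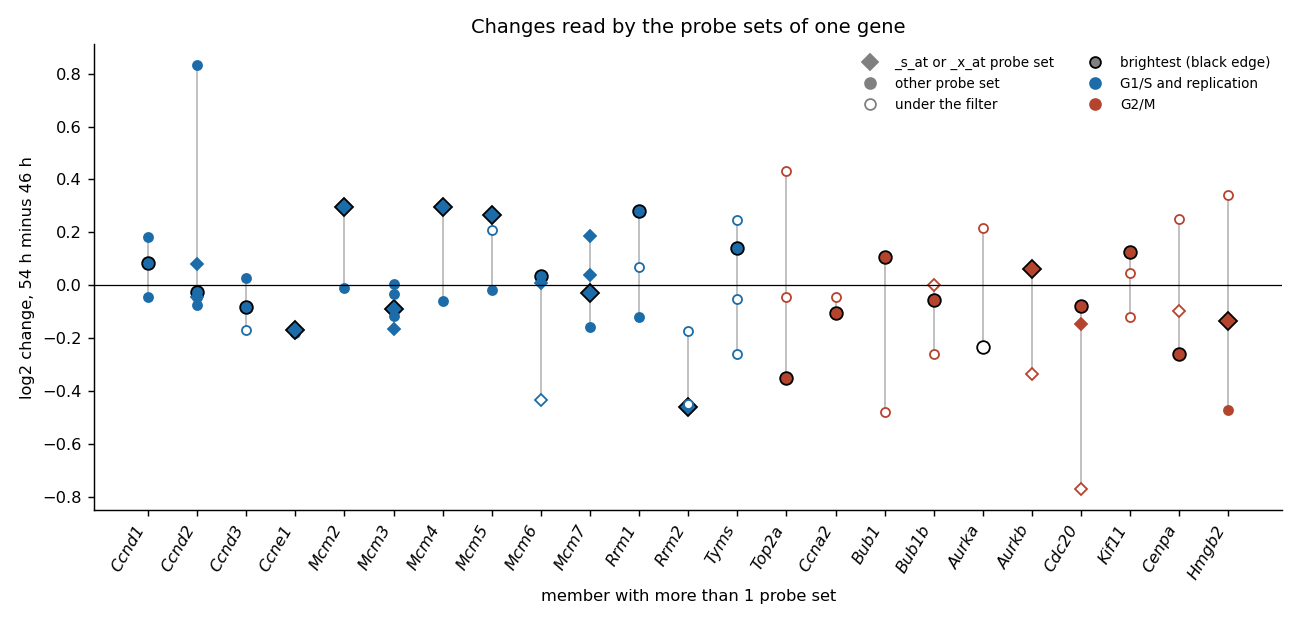
Log2 change between 46 h and 54 h (y axis) of every probe set of the 23 members with more than 1 (x axis); diamonds have the ending _s_at or _x_at, open symbols are under the filter, and a black edge marks the brightest. The black-edged diamonds of Mcm2, Mcm4 and Mcm5 lie at 0.27 to 0.30 and the circles above the filter of the same genes at -0.06 to -0.01.

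The rest of the pathway was read from lists of 125 other genes, of which 123 were measured and 98 lay above the filter. None passed limma (0 of 98); 8 were lower and 4 higher at an unadjusted p under 0.05 (8.16% and 4.08%), near the 6.20% and 4.11% of all genes, and 73 of 123 were lower (59.3%, against 55.3% of all genes), with a median log2 change of -0.05. Among the 98, 10 had every 54 h array under every 46 h array and 6 had the reverse (10.2% and 6.12%). These shares were near the 9.95% and 6.33% of all genes. Genes named below as without overlap were picked mostly by smallest p. Of 16 genes for origin recognition and loading 13 were lower, with a median of -0.09. Cdt1, which loads the helicase with Cdc6, read 291, 298 and 310 units at 46 h and 221, 217 and 279 at 54 h, without overlap, a log2 change of -0.32 ± 0.13 SE. Orc6 had -0.25 ± 0.13 SE. Dbf4, the partner of the CDC7 kinase that fires origins, was under the filter and had -0.37 ± 0.17 SE, with an overlap between the times. Of 7 CDK inhibitors 5 were higher, with a median of 0.15: Cdkn2d (p19), which inhibits CDK4 and CDK6, read 1083, 1091 and 1174 units and then 1255, 1631 and 1575, without overlap, a difference of 0.40 ± 0.11 SE on the log2 scale (limma adjusted p = 0.265). Cdkn1a (p21) had 0.28 ± 0.16 SE, Cdkn2b 0.24 ± 0.13 SE and Cdkn1b (p27) 0.05 ± 0.10 SE, all with overlap. Cdkn2a, under the filter, had 0.15 ± 0.17 SE. The 2 lower ones were Cdkn1c (-0.08 ± 0.05 SE) and Cdkn2c (-0.10 ± 0.09 SE), both with overlap.

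Of the 10 kinases, phosphatases and partners of CDKs, 6 were lower. Cks1b, a small CDK-binding protein, read 1926, 1996 and 2267 units at 46 h and 2484, 2612 and 2492 at 54 h, without overlap, a log2 change of 0.30 ± 0.08 SE; it had the smallest p of the 98 genes above the filter and did not pass (limma adjusted p = 0.252). The CDK1-inhibiting kinases Pkmyt1 and Wee1 had -0.28 ± 0.11 SE and -0.13 ± 0.08 SE, both without overlap, and Cdk4 had -0.17 ± 0.08 SE. Of 19 genes of the RB, E2F and MuvB groups 10 were lower. Rb1 had 0.30 ± 0.16 SE, Lin9 0.19, E2f1 0.07 and Foxm1 0.08. Mybl2, the MYB partner of MuvB at G2/M promoters, was under the filter at 141, 157 and 107 units and then 92.2, 104 and 101, without overlap, a log2 change of -0.38 ± 0.16 SE.

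Polymerases, clamp loader and fork proteins went both ways, with 14 of 23 lower: Pold3 had 0.41 ± 0.12 SE, Rpa1, the large subunit of the single-strand binding complex, 0.21 ± 0.06 SE and Rfc1, the large clamp loader subunit, -0.34 ± 0.11 SE, all without overlap. In the spindle and cytokinesis list 11 of 20 were lower and 9 higher, with a median of -0.0035. Among the 9 higher, Hmmr had 0.40 ± 0.21 SE, with an overlap between the times. The genes of smallest p were all lower: Kif22 (-0.35 ± 0.14 SE), the spindle assembly factor Tpx2 (-0.47 ± 0.20 SE) and Stmn1 (-0.22 ± 0.10 SE). For Tpx2, 46h replicate C read 283 units, within the 54 h range of 270 to 314, against 482 and 514 on the other 46 h arrays. In the kinetochore and checkpoint list 11 of 20 were lower and 9 higher, with a median of -0.0073. Fbxo5 (EMI1), which holds back the anaphase promoting complex until mitosis, read 140, 134 and 156 units at 46 h and 90.8, 72.5 and 95.7 at 54 h, without overlap, a difference of -0.64 ± 0.15 SE on the log2 scale. It had the smallest p of all 123 genes, lay under the filter and did not pass in the fit without one (limma adjusted p = 0.236). Nuf2, of the outer kinetochore, and Cenph, of the inner one, were also under the filter, with -0.39 ± 0.18 SE and 0.38 ± 0.20 SE. Among condensin genes 6 of 8 were lower, with Ncaph at -0.19, Ncapg2 at -0.16 and Ncaph2 at -0.12.

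The glands held the transcripts of the labelled tissue, with 7 of 7 cortical markers and 6 of 6 measured medullary markers above the filter. Array medians ran from 204 to 217 units. Summed markers of some other cell types did not overlap between the times. All 8 measured hepatocyte markers were higher at 54 h and 2 of them, Serpina1b and Cyp3a11, passed limma, with summed levels of 3533 to 5603 units at 46 h and 7844 to 11735 at 54 h; Fgb was under the filter. The 8 macrophage markers, all above the filter, summed to 28517 to 29420 units at 46 h and 26058 to 26401 at 54 h. Of the 8, 5 were lower. The other 3, Csf1r (0.03), Adgre1 (0.01) and C1qa (0.02), were slightly higher, with overlap. The 5 endothelial markers summed to 10535 to 11924 and 9952 to 10488 units, and 4 of the 5 were lower. By itself only Kdr had no overlap (-0.23 ± 0.05 SE), without passing, and Cdh5 was higher (0.09). The 5 erythroid markers summed to 1519 to 1995 and 2072 to 2472 units, with Epb42 under the filter. Of these, Hbb-b2, a beta globin, was 2.06-fold higher at 54 h and passed (limma adjusted p = 0.0288). Alas2 was also higher without overlap, at 0.54, and did not pass. The erythroid markers did not move together: Slc4a1 (0.09) and Epb42 (0.01) overlapped between the times, and Hba-a1 was lower (-0.30), with overlap. The 5 adipocyte markers summed to 22368 to 28295 and 24290 to 29620 units, which overlapped, with a median log2 change of 0.56. Of them, 3 (Lep, Cidea and Ucp1) had every 54 h array above every 46 h array, at 0.59, 0.67 and 0.56, without passing. The other 2, Adipoq and Fabp4, were lower, at -0.11 and -0.06, with overlap. Of the 8 capsule and stroma markers, with Wt1 under the filter, 6 were higher, none passed, and the sums of 9944 to 11220 and 9309 to 12592 units overlapped. The 7 lymphocyte markers, with Cd2, Cd79b and Ms4a1 under the filter, summed to 1341 to 1439 and 1270 to 1416 units. The part of these cells in the cell cycle values was not tested.

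The absence of calls rests on 3 arrays per time, and 28 of the members' 80 probe sets lay under the filter. With array weights 4 of the 28 members above the filter passed limma as higher (Mcm2, Mcm4, Mcm5 and Rrm1) and 4 as lower (Rrm2, Top2a, Cdk1 and Ccnb2), where 5.62% and 7.07% of all genes passed, and 3470 probe sets in place of 31. The weights rest on 46h replicate 1 (2.86) and 54h replicate C (4.26), against 0.372 to 0.63 for the others.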

How the data were processed

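RNA of whole adrenals was measured on 6 arrays, 3 at 46 h and 3 at 54 h. The authors deposited 1 table of intensity values per probe set on a linear scale; how probes were summarised, corrected and scaled is not given in the sources used here. Biotin-labelled material was made from RNA purified on RNeasy columns, per the labels. Of 45001 probe sets, 64 Affymetrix controls, 1 without values and 1 with a damaged value were left out. Names came from the platform annotation (34848 probe sets name exactly 1 gene), checked by gene ID against RefSeq GRCm38.p6, which changed 0 symbols.

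Values were taken as log2(intensity + 16), without further scaling since the medians of the arrays differed by at most 0.0728, and probe sets with a mean above the 40th percentile were kept (26961). limma 3.58.1 in R 4.3.3 (lmFit, eBayes with an intensity trend, two-sided) compared the times across all probe sets, with Benjamini-Hochberg adjustment over all of them. Members under the filter were taken from the same fit without a filter. In a simulation of the 54 h against 46 h test (26961 probe sets), it recovered 34.9% of 1.5-fold, 80.6% of 2-fold and 95.5% of 3-fold changes. Changes were placed at random over these probe sets, with independent noise. The shares are averages over all levels, and recovery for the members, many of them dim, was not estimated. The members and lists were chosen with earlier results of these data known. All members are named, with, of each other cell cycle list, up to 3 measured genes of smallest p and 6 well-known genes (Cdkn1a, Cdkn1b, Wee1, E2f1, Foxm1 and Mybl2). Cdkn1c, Cdkn2a, Cdkn2c and Hmmr are named besides these. Alternatives were other scalings, filters, offsets, variance models, the replicate letter as a block, array weights, other probe set choices and leaving out each array. Tables were made in Python 3.11.15 and figures in matplotlib 3.10.9.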

Additional observations from a re-analysis of the deposited data

How the results depend on the processing

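Of 573 values of single members under the alternatives, 537 kept their direction and side of the test. Another 8 passed it, all with array weights, and 28 changed sign, in 15 genes, none past the test. Many of the 537 were fixed in advance: other filters, variance models and the replicate block leave a log2 change as it is. Members under the filter had no test in most settings and were counted as keeping their side. The 537 is therefore not a measure of robustness. Signs turned when all probe sets of a gene were averaged (Aurkb -0.138, Bub1 -0.186, Ccnd2 0.098, Mcm6 -0.13, Mcm7 0.0105 and Top2a 0.012) and, in a reading added once the data had been seen, with probe sets without an _s_at or _x_at ending (Mcm2 -0.0109, Mcm4 -0.0601 and Mcm5 -0.0173). They turned with array weights in Mcm7 (0.00784), Plk1 (-0.00124) and Ube2c (0.021) and with arrays centred on their medians in Ccnd2 (0.00324). Leaving out 1 array at a time crossed 0 in Bub1 (-0.0428 to 0.266), Ccnd3 (-0.192 to 0.0338), Ccne1 (-0.58 to 0.0706), Cdc20 (-0.159 to 0.00176), Kif11 (-0.0563 to 0.319), Mcm6 (-0.0446 to 0.172), Mcm7 (-0.124 to 0.0325), Plk1 (-0.117 to 0.151) and Ube2c (-0.104 to 0.0277). The cause of these turns was not tested.

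The count of members past limma was 0 in every setting except array weights (8), and that of other cell cycle genes 0 except there (13). Over all probe sets the count of 31 became 50 with arrays centred on their medians, 47 with quantile normalization, 3 without a trend, 61 with a robust fit, 48 with a filter at the 60th percentile, 3470 with array weights and 10 with averaged probe sets. Without 1 array it ran from 2 to 66: 2 without either 46h replicate 1 or 54h replicate C, 18 with 46h replicate B left out, and 66 or 61 with 54h replicate 1 or B left out. With a replicate block it was 45, with 0 members. The labels do not say whether the letters pair the arrays. Deviations of same-letter arrays correlated at -0.06, -0.41 and -0.49, which with 3 arrays per time cannot settle it.

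The median change of G2/M genes ran from -0.168 to -0.0859 without 1 array and was -0.233 without shared probe sets. With the filter at the 60th percentile, which kept only Cdc20, it was -0.0798. In every setting run most of the G2/M genes kept were lower, but this is not a measure of robustness. The fit without a filter, the variance models and the replicate block leave each log2 change as it is. The other settings reread the same arrays, and the members were chosen with results of these arrays known. The median change of G1/S and replication genes ran from 0.0118 to 0.134 without 1 array, the highest without 46h replicate C. It was -0.0237 without shared probe sets.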

Other observations

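A probe set annotated to both Tyms and its pseudogene Tyms-ps, and so not counted for Tyms, read 238, 252 and 235 units at 46 h and 201, 216 and 227 at 54 h, without overlap, a difference of -0.16 ± 0.11 SE on the log2 scale (limma adjusted p = 0.674). The Tyms probe set above the filter had 0.14 ± 0.15 SE.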
